A study of Arabidopsis thaliana with 32 samples.

Results

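The genes described here are the nuclear genes for the light-harvesting antenna and the small subunits of the photosystems of Arabidopsis thaliana. They were chosen by name as 40 gene identifiers, out of 34262 genes in the deposited RPKM table (reads scaled to gene length and to the reads of the library). Photosystem II takes electrons from water and photosystem I passes them to ferredoxin, and both sit in the thylakoid membranes of the chloroplast. Their reaction centre proteins are made inside the plastid, whereas the chlorophyll-binding antenna proteins and many small subunits are made from nuclear genes and imported. In leaves, transcripts of these nuclear genes are among the most abundant, and they are known to depend on light, the circadian clock and GLK transcription factors.

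The series held 32 libraries from seedlings 15 days old, 12 of RNA-seq and 20 of m6A-seq, and its title concerns phosphorylation of FIP37 by the receptor kinase TMK4 and auxin-triggered m6A. FIP37 belongs to the enzyme complex that places N6-methyladenosine (m6A) on mRNA, and NAA is a synthetic auxin. The RNA-seq groups were fip37 LEC1:FIP37 with 50 µM NAA for 3 h, fip37 LEC1:FIP37 with mock for 3 h, wild type with 50 µM NAA for 3 h and wild type with mock for 3 h, with 3 libraries each. The m6A-seq conditions were tmk4-1 with 50 µM NAA for 3 h, 35S:FIP373A, 35S:FIP37, wild type with 50 µM NAA for 3 h and wild type with mock for 3 h, each with 2 immunoprecipitated and 2 input libraries. The labels gave no treatment for the 35S lines and did not describe the FIP373A form further. LEC1 is a gene of the embryo, so its promoter is known for driving FIP37 there, and 35S is a viral promoter that is active in most plant tissues. Whole seedlings were used, so fewer green cells and less RNA per green cell cannot be told apart.

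The photosystem I antenna is made of LHCA1 (AT3G54890), LHCA2 (AT3G61470), LHCA3 (AT1G61520) and LHCA4 (AT3G47470). The trimers of the photosystem II antenna are made of the LHCB1 copies LHCB1.1 (AT1G29920), LHCB1.2 (AT1G29910), LHCB1.3 (AT1G29930), LHCB1.4 (AT2G34430) and LHCB1.5 (AT2G34420), of LHCB2.1 (AT2G05100), LHCB2.2 (AT2G05070) and LHCB2.3 (AT3G27690), and of LHCB3 (AT5G54270). The monomeric antenna proteins that join the trimers to the core come from LHCB4.1 (AT5G01530), LHCB4.2 (AT3G08940), LHCB4.3 (AT2G40100), LHCB5 (AT4G10340) and LHCB6 (AT1G15820). Photosystem I subunits are encoded by PSAD1 (AT4G02770) and PSAD2 (AT1G03130), PSAE1 (AT4G28750) and PSAE2 (AT2G20260), PSAF (AT1G31330), PSAG (AT1G55670), PSAH1 (AT3G16140) and PSAH2 (AT1G52230), PSAK (AT1G30380), PSAL (AT4G12800), PSAN (AT5G64040) and PSAO (AT1G08380). The oxygen-evolving proteins on the lumen side of photosystem II come from PSBO1 (AT5G66570), PSBO2 (AT3G50820), PSBP1 (AT1G06680), PSBQ1 (AT4G21280) and PSBQ2 (AT4G05180). Its other small proteins come from PSBR (AT1G79040), PSBS (AT1G44575), PSBW (AT2G30570), PSBX (AT2G06520) and PSBY (AT1G67740).

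Some facts of the libraries bear on all results. FIP37 (AT3G54170) itself stood at 58.4, 120.1 and 83.9 RPKM in the NAA libraries labelled fip37 LEC1:FIP37 and at 23.3, 20.8 and 11.3 RPKM in wild type with NAA. With mock it stood at 57.9, 87.3 and 91.8 RPKM in the libraries labelled fip37 LEC1:FIP37 and at 11.3, 12.4 and 11.3 RPKM in wild type, so FIP37 RNA was higher under that label, by 2.64 ± 0.29 on the log2 scale with mock (SE, n = 3 each, limma adjusted p = 3.83e-05). A value per gene does not tell transcripts of the transgene from those of the gene itself. Relative depth, read from the steps of low values, ran between 83.6% and 152% with the first mock library of wild type as the base. The third wild-type NAA library differed from its group. In it 1718 genes lay 2-fold or more away from the average of its 2 fellow libraries, against 392 and 364 genes for those and 22 to 312 genes in the other groups. For the photosystem and antenna genes, results that use it are given with and without it where that changes a call. Results for other gene lists use all libraries unless stated.

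Nearly all of these genes were transcribed at high levels. The mean over the 12 libraries was at least 100 RPKM for 38 of the 40 genes, a level that 918 of all genes reached. LHCB1.3, a copy of the main trimer protein, ranked 1 among all genes, with 12111, 12229 and 11298 RPKM in the NAA libraries labelled fip37 LEC1:FIP37 and 8840.0, 7358 and 12114 RPKM in wild type with NAA. With mock it had 14037, 11456 and 13929 RPKM under the fip37 LEC1:FIP37 label and 14498, 14641 and 13764 RPKM in wild type. The genotypes overlapped within each treatment for LHCB1.3, and all wild-type NAA libraries lay below all wild-type mock ones. PSBR, a small photosystem II protein, ranked 3 and ran between 3609 and 5440 RPKM, and PSBO1, which shields the manganese cluster, ranked 8 and ran between 1883 and 2967 RPKM. The neighbours PSBO1 and LHCA2 (1649 to 2293 RPKM) overlapped in range, as did LHCA2 and PSAF (1225 to 2588 RPKM), whereas every PSBR value lay above every PSBO1 value.

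At the low end stood the genes of lowest mean RPKM. LHCB2.3 had 248, 167 and 116 RPKM in the NAA libraries labelled fip37 LEC1:FIP37 and 89.9, 98.2 and 203 RPKM in wild type with NAA, and PSAG, a subunit at the edge of photosystem I, had 237 to 448 RPKM in the 12 libraries. LHCB4.3, the rare form of the LHCB4 antenna protein, had 9.24, 10.6 and 9.11 RPKM in the NAA libraries labelled fip37 LEC1:FIP37 and 5.56, 11.0 and 2.69 RPKM in wild type with NAA. Each LHCB4.3 value lay below every value of the other 38 genes tested. LHCB1.5 was listed at 0 RPKM in all 12 libraries, although the same gene held peaks in m6A lists described further on. The LHCB1 and LHCB2 copies are similar in sequence, and how reads that match several copies were counted was not given in the sources used here, so values of single LHCB1 or LHCB2 copies are uncertain.

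The 40 genes together took 10.5% ± 1.2 of the summed RPKM in the NAA libraries labelled fip37 LEC1:FIP37 and 7.73% ± 0.401 in wild type with NAA (SD, n = 3 each). With mock they took 10.8% ± 0.797 under the fip37 LEC1:FIP37 label and 9.09% ± 0.617 in wild type. The ranges were 9.73% to 11.8% against 7.37% to 8.16% with NAA, and 9.90% to 11.3% against 8.69% to 9.80% with mock, so they did not overlap in either treatment. The photosystem II antenna genes made up the largest piece, at 4.39% ± 0.579 in the NAA libraries labelled fip37 LEC1:FIP37 and 3.26% ± 0.448 in wild type with NAA.

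Most photosystem I core and oxygen-evolving genes were higher in the libraries labelled fip37 LEC1:FIP37 than in wild type, and a few gene copies were lower. With mock, 25 of the 39 genes tested passed the threshold (limma on log2(RPKM + 1), Benjamini-Hochberg adjusted p under 0.05 over 18072 genes), 21 higher and 4 lower. Over all genes tested 38.8% were called in that comparison, 15.3% higher and 23.5% lower, and among genes averaging 100 RPKM or more 18.6% were higher and 32.2% lower. With NAA, 22 of the 39 genes passed, 20 higher and 2 lower, beside 43.8% called over all genes, 19.2% higher and 24.6% lower, and 24.4% higher and 29.6% lower among those averaging 100 RPKM or more. Without the third wild-type NAA library 25 genes passed with NAA, 23 higher and 2 lower, beside 50.4% of all genes, 19.6% higher and 30.8% lower. With quantile normalization the mock calls were 14 higher and 7 lower, and those with NAA 15 higher and 3 lower. The median log2 fold change of the 39 genes was 0.47 with NAA and 0.42 with mock, beside -0.05 and -0.07 over all genes tested. The mock median was 0.22 under quantile normalization. The genotype comparisons with NAA and with mock share no library, but both use the spread estimated from all 12 libraries. Of the genes higher, 18 were called in both, which is 90% of the 20 with NAA and 85.7% of the 21 with mock. Of the genes lower, 2 were called in both, which is 100% of the 2 with NAA and 50% of the 4 with mock. The matching overlap over all genes was not counted.

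**Figure D1:**
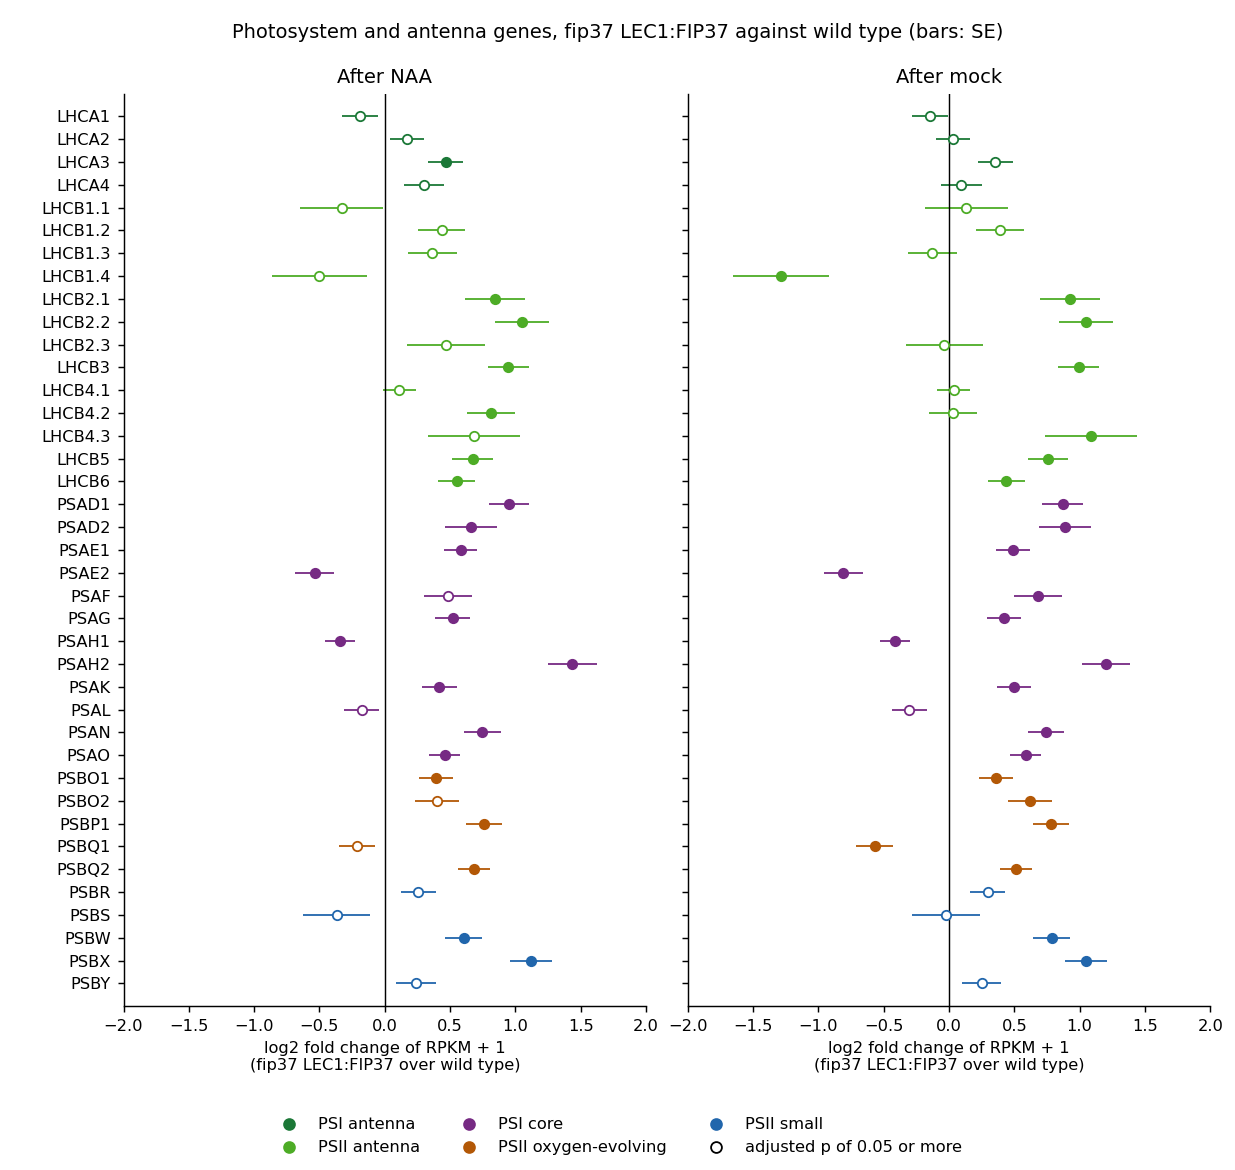
Log2 fold change of RPKM + 1 in the libraries labelled fip37 LEC1:FIP37 over wild type for the 39 genes tested (rows, coloured by role), after NAA (left) and after mock (right). Points are limma estimates from 3 libraries a group, bars are SE, and open points did not pass an adjusted p of 0.05. Most filled points lie right of 0, while PSAE2 and PSAH1 lie left of it in both panels and LHCB1.4 and PSBQ1 are filled left of it with mock.

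Among the subunits of photosystem I outside its antenna, 8 of 12 genes were higher and 2 lower with NAA, and 9 higher and 2 lower with mock. With NAA that was 66.7% higher and 16.7% lower, beside 19.2% and 24.6% over all genes. With mock it was 75% higher and 16.7% lower, beside 15.3% and 23.5%. PSAH2, which encodes the subunit where the mobile antenna docks, had the largest increase. It had 1115, 992 and 877 RPKM in the NAA libraries labelled fip37 LEC1:FIP37 and 438, 402 and 277 RPKM in wild type with NAA, a log2 fold change of 1.44 ± 0.19 (SE, n = 3 each, limma adjusted p = 9.30e-05). With mock it had 1033, 924 and 1249.8 RPKM under the fip37 LEC1:FIP37 label and 529, 428 and 430.0 RPKM in wild type (1.2 ± 0.19, limma adjusted p = 0.000388). All 6 libraries labelled fip37 LEC1:FIP37 lay above all 6 of wild type.

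PSAD1, whose protein docks ferredoxin, had 1848, 1627 and 1574 RPKM in the NAA libraries labelled fip37 LEC1:FIP37 and 949, 829.6 and 830.4 RPKM in wild type with NAA (0.95 ± 0.16, limma adjusted p = 0.000474). With mock it had 1741, 1676 and 2118 RPKM under that label and 1125, 812 and 1105 RPKM in wild type (0.87 ± 0.16, adjusted p = 0.00104). The groups did not overlap in either treatment. Its copy PSAD2 was higher too, by 0.66 with NAA and 0.89 with mock. PSAN, a subunit on the lumen side, rose by 0.75 with NAA and 0.74 with mock. PSAO, PSAK and PSAG, small membrane subunits, rose by 0.46, 0.42 and 0.52 with NAA and by 0.59, 0.50 and 0.42 with mock. PSAD2 with NAA missed the threshold without the first library under the label (0.60, limma adjusted p = 0.0572). PSAK with NAA did so without the first library of either genotype (0.36 and 0.38, adjusted p = 0.0739 and 0.0681), and with mock without the third of wild type (0.42, adjusted p = 0.055). PSAG with mock lost its call without any 1 of 4 libraries, the second and the third of wild type and the first and the third under the label (0.32 to 0.44, adjusted p = 0.0508 to 0.107). Quantile normalization ended the calls of PSAO (0.27 with NAA and 0.30 with mock, limma adjusted p = 0.0661 and 0.0536), of PSAD2 and PSAK with NAA (0.52 and 0.35, adjusted p = 0.101 and 0.0555) and of PSAF with mock (0.45, adjusted p = 0.0956). The PSAK call with NAA was also lost with the groups compared alone (0.42, limma adjusted p = 0.065). PSAF, which takes part in docking plastocyanin, rose by 0.68 with mock (limma adjusted p = 0.0117) and missed the threshold with NAA (0.48, adjusted p = 0.0506). PSAL, which holds the docking side for the mobile antenna with PSAH, was not called, with -0.18 with NAA and -0.31 with mock. With mock it had 1281, 1144 and 1367 RPKM under the label and 1706, 1493 and 1489 RPKM in wild type. All PSAL libraries under the label thus lay below all of wild type with mock.

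The copies of PSAE, PSAH and PSBQ moved apart. PSAE proteins sit at the ferredoxin site, and PSAE1 had 942, 836 and 771 RPKM in the NAA libraries labelled fip37 LEC1:FIP37 and 553, 569 and 574 RPKM in wild type with NAA (0.58 ± 0.13, limma adjusted p = 0.00311). PSAE2 had 347, 351 and 308 RPKM in the same libraries labelled fip37 LEC1:FIP37 and 449, 412 and 617 RPKM in wild type with NAA (-0.53 ± 0.15, adjusted p = 0.0121). PSAE1 was thus higher and PSAE2 lower in all 3 libraries under that label than in any of wild type. With mock PSAE1 had 881, 789 and 1011 RPKM under the fip37 LEC1:FIP37 label and 689, 612 and 601 RPKM in wild type (0.49 ± 0.13, adjusted p = 0.00957). PSAE2 with mock had 399.9, 346 and 388 RPKM under that label and 655, 714 and 624 RPKM in wild type (-0.81 ± 0.15, adjusted p = 0.00122), again with no overlap for either copy. The PSAE2 call with NAA was lost without the third library under the label (-0.47, limma adjusted p = 0.0517), under median-ratio scaling (-0.48, adjusted p = 0.054) and with the groups compared alone (-0.53, adjusted p = 0.0602). The PSAE1 call with mock was lost under quantile normalization (0.31, adjusted p = 0.0723). PSAE1 supplied 71.6% ± 1.33 of the PSAE level in the NAA libraries labelled fip37 LEC1:FIP37 and 53.8% ± 5.04 in wild type with NAA, and with mock 70.2% ± 1.85 and 48.8% ± 2.56 (SD, n = 3 each).

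PSAH1 had 371, 319 and 296 RPKM in the NAA libraries labelled fip37 LEC1:FIP37 and 406, 399.8 and 441 RPKM in wild type with NAA (-0.34 ± 0.11, limma adjusted p = 0.0274). With mock PSAH1 had 352, 329 and 369 RPKM under that label and 487, 465 and 448 RPKM in wild type (-0.41 ± 0.11, adjusted p = 0.0128). It was lower in all libraries under the label, the opposite of PSAH2. The NAA call of PSAH1 was lost without the first or the third wild-type library or the second or the third under the label (-0.36 to -0.27, limma adjusted p = 0.0514 to 0.118), and its mock call without the first wild-type library (-0.38, adjusted p = 0.0511). Median-ratio scaling ended both (-0.29 with NAA, limma adjusted p = 0.146, and -0.33 with mock, adjusted p = 0.109). The NAA call was also lost under quantile normalization (-0.26, adjusted p = 0.0801) and with the groups compared alone (-0.34, adjusted p = 0.121). PSAH2 supplied 75.2% ± 0.464 of the PSAH level in the NAA libraries labelled fip37 LEC1:FIP37 and 46.8% ± 7.25 in wild type with NAA, and with mock 75.2% ± 1.82 and 49.7% ± 2.15.

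**Figure D2:**
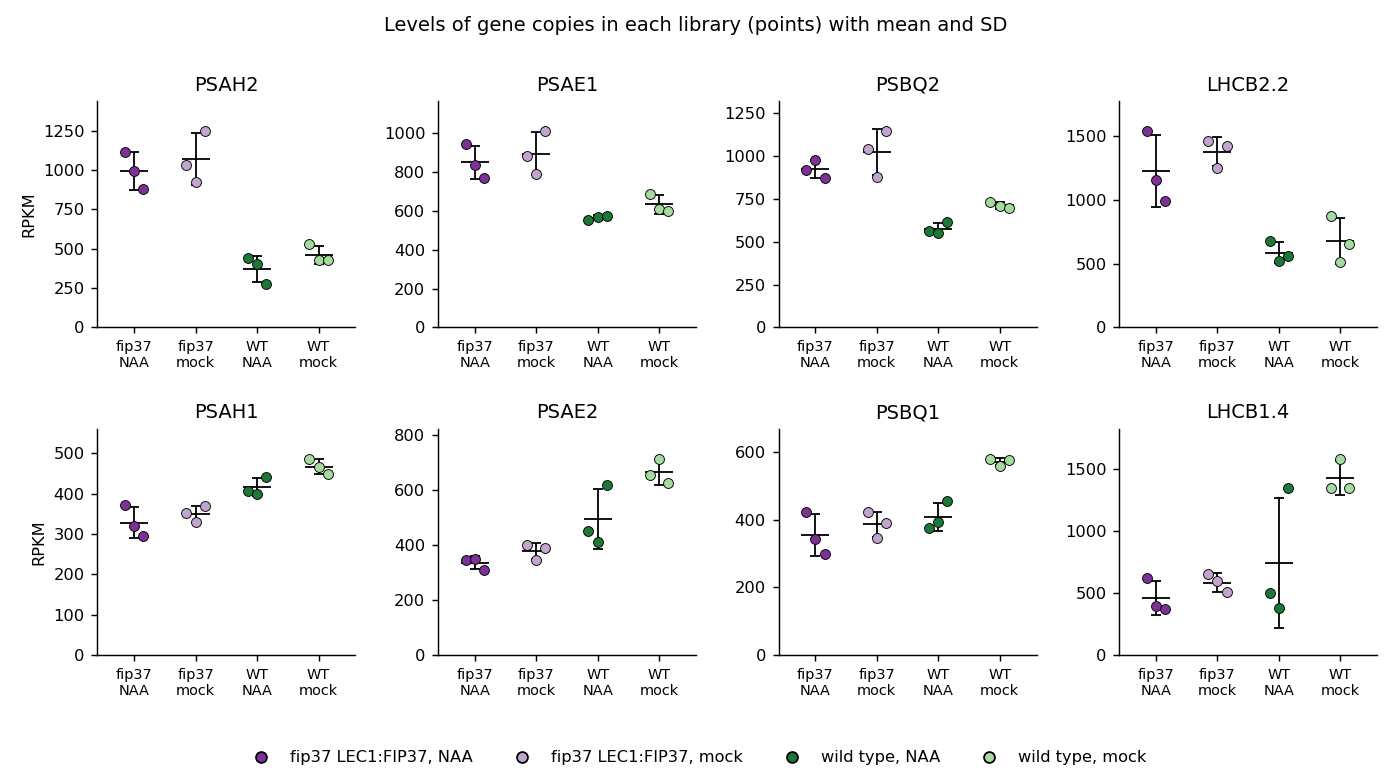
RPKM in each library (points, 3 a group) with mean and SD for copies of PSAH, PSAE and PSBQ that moved apart. LHCB2.2 and LHCB1.4, which belong to different families, are shown too. Groups from left to right are fip37 LEC1:FIP37 with NAA and mock, then wild type (WT) with NAA and mock. PSAH2, PSAE1, PSBQ2 and LHCB2.2 (top row) are higher in the libraries labelled fip37 LEC1:FIP37, and PSAH1, PSAE2, PSBQ1 and LHCB1.4 (bottom row) are lower there with mock. For LHCB1.4 the third wild-type NAA library, at 1346 RPKM, lies with the mock libraries.

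Among the oxygen-evolving genes, 3 of 5 were higher with NAA, and 4 were higher and 1 lower with mock. With NAA that was 60% higher, beside 19.2% over all genes. With mock it was 80% higher and 20% lower, beside 15.3% and 23.5%. PSBP1, the only PSBP gene among the 40, had 2006, 1969 and 1768 RPKM in the NAA libraries labelled fip37 LEC1:FIP37 and 1111, 1218 and 1059 RPKM in wild type with NAA (0.76 ± 0.14, limma adjusted p = 0.000914). With mock it had 2335, 1842 and 2094 RPKM under that label and 1383, 1126 and 1139 RPKM in wild type (0.78 ± 0.14, adjusted p = 0.000922), and the groups did not overlap. PSBQ proteins bind beside PSBP, and PSBQ2 had 916, 976 and 873 RPKM in the NAA libraries labelled fip37 LEC1:FIP37 and 563, 549 and 611 RPKM in wild type with NAA (0.68 ± 0.12, adjusted p = 0.000865). With mock PSBQ2 had 1041, 878 and 1145 RPKM under that label and 733, 705 and 696 RPKM in wild type (0.51 ± 0.12, adjusted p = 0.00591). Neither treatment gave an overlap for PSBQ2, and its mock call was lost under quantile normalization (0.22, limma adjusted p = 0.113).

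PSBQ1 went the other way with mock, at 423, 347 and 389 RPKM in the libraries labelled fip37 LEC1:FIP37 and 580.4, 559.7 and 575 RPKM in wild type (-0.57 ± 0.14, limma adjusted p = 0.00714). That call was lost under median-ratio scaling (-0.48, limma adjusted p = 0.0606). With NAA it had 422, 344 and 299 RPKM under that label and 377, 395 and 455 RPKM in wild type, groups that overlapped and were not called (-0.21 ± 0.14, adjusted p = 0.24). PSBQ2 supplied 72.3% ± 3.33 of the PSBQ level in the NAA libraries labelled fip37 LEC1:FIP37 and 58.5% ± 1.3 in wild type with NAA, and with mock 72.5% ± 1.89 and 55.4% ± 0.588. PSBO1 had 2647, 2546 and 2512 RPKM in the NAA libraries labelled fip37 LEC1:FIP37 and 1994, 1996 and 1883 RPKM in wild type with NAA (0.39 ± 0.13, limma adjusted p = 0.0311), a call lost without any 1 of those 6 libraries (0.36 to 0.41, adjusted p = 0.0602 to 0.0766). With no filter on low values and with the groups compared alone the NAA call was lost too (limma adjusted p = 0.157 and 0.0758). With quantile normalization its NAA value turned to -0.080 (adjusted p = 0.684). Its mock difference (0.36, limma adjusted p = 0.0499) was just inside the threshold and was lost under 13 alternatives, among them the omission of any library but the third of wild type with NAA, the first of wild type with mock and the second under the label with mock (0.29 to 0.36, adjusted p = 0.0583 to 0.169). PSBO2 was 0.40 with NAA (adjusted p = 0.0706) and 0.62 with mock (adjusted p = 0.0113), called with mock but not without the second wild-type library or the first under the label (0.54 and 0.51, limma adjusted p = 0.054 and 0.0507).

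Of the other small photosystem II genes, PSBX and PSBW were higher in both treatments, and PSBR, PSBS and PSBY passed in neither. PSBX had 1829, 1606 and 1421 RPKM in the NAA libraries labelled fip37 LEC1:FIP37 and 801, 767 and 660.0 RPKM in wild type with NAA (1.12 ± 0.16, limma adjusted p = 0.000192). With mock PSBX had 1719, 1472 and 2025 RPKM under that label and 947, 842 and 723 RPKM in wild type (1.05 ± 0.16, adjusted p = 0.000373). PSBW had 1409, 1165 and 1374 RPKM with mock under that label and 869, 758 and 665 RPKM in wild type (0.79 ± 0.14, adjusted p = 0.00103). The groups did not overlap for PSBX or PSBW. PSBS, whose protein senses lumen acidity for non-photochemical quenching, was -0.37 ± 0.26 with NAA and -0.03 ± 0.26 with mock, with overlapping groups. Without the third wild-type NAA library it was called lower with NAA (-0.63 ± 0.23, limma adjusted p = 0.0379).

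In the antenna of photosystem I a single call was made with all libraries. None of the 4 LHCA genes passed with mock, where their log2 fold changes ran between -0.15 and 0.35, and LHCA3 passed with NAA (0.47 ± 0.13, limma adjusted p = 0.0137). LHCA3 had 1297, 1205 and 1062 RPKM in the NAA libraries labelled fip37 LEC1:FIP37 and 845, 796 and 932 RPKM in wild type with NAA, without overlap, and its call was lost without the second wild-type library (0.42, limma adjusted p = 0.052) or the first under the label (0.40, adjusted p = 0.0502), and with the groups compared alone (0.47, adjusted p = 0.0539). LHCA1 (-0.19 with NAA, -0.15 with mock), LHCA2 (0.17, 0.03) and LHCA4 (0.30, 0.09) were not called, and a missed threshold does not show that the genotypes were alike. LHCA3 with mock, at 0.35, was called when the third wild-type NAA library, a source only of the shared spread there, was left out (limma adjusted p = 0.0374, against 0.0538 with it). LHCA4 with NAA was called without the same library (0.46 ± 0.14, limma adjusted p = 0.0168).

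In the photosystem II antenna, 6 of 13 genes were higher with NAA, and 6 were higher and 1 lower with mock. That was 46.2% called with NAA and 53.8% with mock, beside 43.8% and 38.8% over all genes. The share called higher was 46.2% in each treatment, beside 19.2% with NAA and 15.3% with mock over all genes. LHCB3, the third trimer protein, had 2127, 1822 and 1569 RPKM in the NAA libraries labelled fip37 LEC1:FIP37 and 879, 921 and 1053 RPKM in wild type with NAA (0.94 ± 0.16, limma adjusted p = 0.000522). With mock it had 2174, 1854 and 2058 RPKM under that label and 1206, 978 and 888 RPKM in wild type (0.99 ± 0.16, adjusted p = 0.000445). All libraries under the label lay above all of wild type. LHCB2.2 had 1541, 1159 and 989 RPKM in the NAA libraries labelled fip37 LEC1:FIP37 and 678, 523 and 561 RPKM in wild type with NAA (1.05 ± 0.21, adjusted p = 0.00161), and with mock the difference was 1.05 ± 0.21 (adjusted p = 0.00192). LHCB2.1 was higher by 0.84 with NAA and 0.92 with mock, calls lost under quantile normalization (0.67 and 0.71, limma adjusted p = 0.056 and 0.0505), while LHCB2.3 was not called (0.47 and -0.04). LHCB2.3 with mock had 172, 166 and 175 RPKM under the fip37 LEC1:FIP37 label and 188, 157 and 182 RPKM in wild type, values that overlapped.

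The LHCB1 copies showed no call with NAA and a single one with mock. LHCB1.4 had 651, 599 and 507 RPKM in the mock libraries labelled fip37 LEC1:FIP37 and 1349.8, 1584 and 1345 RPKM in wild type (-1.29 ± 0.37, limma adjusted p = 0.0152), with no overlap. With NAA it had 619.7, 399 and 369 RPKM under that label and 505, 381 and 1346 RPKM in wild type (-0.50 ± 0.37, adjusted p = 0.286). Of the wild-type NAA libraries of LHCB1.4, 2 lay within the range of those labelled fip37 LEC1:FIP37 and the third above it. Its mock call was lost without the second wild-type mock library (-1.21, limma adjusted p = 0.0538) and without the third library under the label (-1.19, adjusted p = 0.0528). LHCB1.1, at 2082, 1411 and 1161 RPKM with mock under the label and 1878, 1262 and 1090.4 RPKM in wild type, overlapped between the genotypes, and so did LHCB1.2, at 2292, 1517 and 1868 RPKM and 1613, 1338 and 1340.0 RPKM. Without the third wild-type NAA library, LHCB1.2 (0.56, limma adjusted p = 0.024), LHCB1.3 (0.56, adjusted p = 0.021) and LHCB2.3 (0.84, adjusted p = 0.00884) were higher with NAA under the label.

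The monomeric antenna genes LHCB5 and LHCB6 were higher in both treatments, by 0.67 and 0.55 with NAA and 0.76 and 0.44 with mock. The LHCB6 call with mock was lost without the second or the third wild-type library or the first or the third under the label (0.38 to 0.41, limma adjusted p = 0.084 to 0.106), with no filter on low values (0.44, adjusted p = 0.052) and under quantile normalization (0.33, adjusted p = 0.0758). Among the LHCB4 copies the calls differed. LHCB4.1 was not called in either treatment (0.11 and 0.04), at 1349, 1228 and 1122 RPKM in the NAA libraries labelled fip37 LEC1:FIP37 and 1159, 1054 and 1206 RPKM in wild type with NAA. LHCB4.2 was called with NAA, at 838, 773 and 668 RPKM in the libraries labelled fip37 LEC1:FIP37 and 387, 348 and 588 RPKM in wild type (0.82 ± 0.18, limma adjusted p = 0.00353). With mock LHCB4.2 had 836, 739 and 898 RPKM under that label and 882, 752 and 783 RPKM in wild type, which overlapped (0.03). LHCB4.3 was called with mock, at 11.7, 7.30 and 10.2 RPKM under the label and 6.20, 3.21 and 3.05 RPKM in wild type (1.09 ± 0.35, adjusted p = 0.0288), a call lost without the second or the third wild-type library or the first or the third under the label (0.94 to 1.04, limma adjusted p = 0.076 to 0.102).

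Some markers of other cell types and some clock genes also differed between the genotypes. Root marker genes summed to 775 to 860 RPKM in the NAA libraries labelled fip37 LEC1:FIP37 and 295 to 357 RPKM in wild type with NAA, and with mock to 897 to 1294 and 473 to 552 RPKM, with none of the 10 markers at 0. PYK10, a root beta-glucosidase, made up most of that sum and rose by 1.51 with NAA and 1.14 with mock, while the root hair genes COBL9 and RHD6 and the endodermis gene SCR were lower with mock. Of the 9 root markers tested 3 were higher and 1 lower with NAA, and 1 was higher and 3 lower with mock. Epidermis and vein markers summed to 106 to 137 RPKM in the NAA libraries labelled fip37 LEC1:FIP37 and 138 to 213 RPKM in wild type with NAA, and ATML1, FDH and GL2, genes of the epidermis, were lower in both treatments. FDH made up most of that sum with NAA, at 63.4 ± 10.2 RPKM under the label and 129 ± 35.5 RPKM in wild type. The vein genes were called in neither treatment, with log2 fold changes of 0.20 and 0.40 for SUC2 and 0.06 and -0.01 for APL with NAA and mock. Of 9 clock genes, the evening genes TOC1, GI and LUX were lower in both treatments, with log2 fold changes of -1.54, -1.14 and -1.72 with NAA and -1.3, -1.06 and -1.78 with mock. The other 6 were not called, with values from -0.61 for PRR7 to 0.09 for CCA1 with NAA and from -0.21 for LHY to 0.89 for PRR5 with mock. The shares called in each treatment were 44.4% of root markers, 60% of epidermis and vein markers and 33.3% of clock genes. Over all genes 43.8% were called with NAA and 38.8% with mock. The part of root, epidermis or clock differences in the photosystem genes' differences was not tested.

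Genes that work beside the photosystems were mixed, and their counts stand beside 43.8% called over all genes with NAA (19.2% higher, 24.6% lower) and 38.8% with mock (15.3% higher, 23.5% lower). Among regulators, GLK1 and GLK2, which activate antenna and chlorophyll genes, rose by 1.83 and 1.4 with NAA (limma adjusted p = 0.000267 and 0.000398) and by 1.80 and 0.90 with mock. GLK1 had 83.2, 88.8 and 97.2 RPKM in the NAA libraries labelled fip37 LEC1:FIP37 and 31.5, 30.7 and 15.2 RPKM in wild type with NAA, without overlap. HY5, a light-signalling transcription factor, fell by 0.68 with NAA and by 1.02 with mock. Of the 9 regulators, 2 rose and 2 fell with NAA, and 2 rose and 4 fell with mock, which is 44.4% and 66.7% called. Of 13 electron transport and ATP synthase genes, 6 rose and 2 fell with NAA and 4 rose and 2 fell with mock, or 61.5% and 46.2% called. FD1, a leaf ferredoxin, rose by 1.49 with NAA and 0.92 with mock. Of 17 chlorophyll synthesis genes tested, 6 rose with NAA, and 2 rose and 1 fell with mock, or 35.3% and 17.6% called. By direction that was 35.3% higher and 0% lower with NAA, and 11.8% higher and 5.88% lower with mock. The share higher with NAA was above that over all genes, and the rest were below the matching shares. CAO, which makes chlorophyll b, rose by 0.95 and 1.03. Of 9 genes for antenna import and photosystem assembly, 1 rose and 1 fell with NAA, and 1 fell with mock. That was 22.2% and 11.1% called, both below the share over all genes. The photosystem II assembly factor HCF136 fell by 0.83 with NAA and 0.61 with mock. Of 9 minor and stress-induced relatives of the antenna genes, 3 rose and 1 fell with NAA, and 4 rose and 1 fell with mock, or 44.4% and 55.6% called. Of 9 chlorophyll breakdown and senescence genes tested, 2 rose and 1 fell with NAA and 2 rose with mock, or 33.3% and 22.2% called, and SAG13, a senescence-associated gene, rose by 4.19 and 5.30.

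In wild type, NAA lowered a single gene of the 39 past the threshold. LHCB4.2 had 387, 348 and 588 RPKM with NAA and 882, 752 and 783 RPKM with mock, a log2 fold change of -0.90 ± 0.18 (SE, n = 3 each, limma adjusted p = 0.0116). Over all genes tested 8.35% were called in that comparison, and 11.2% of those averaging 100 RPKM or more. The NAA libraries lay all below the mock ones for 13 of the 39 genes, beside 21.6% of all genes tested, and all above them for 0 genes, beside 9.64%. The median log2 fold change was -0.17 over the 39 genes, -0.15 over all genes averaging 100 RPKM or more and -0.06 over all genes tested. The median of the 39 was -0.10 without the first mock library, and likewise -0.10 under median-ratio scaling and under quantile normalization. The call of LHCB4.2 was lost without the first mock library (-0.84, limma adjusted p = 0.0548) and without the second NAA library (-0.75, adjusted p = 0.0505), and with the 2 groups compared alone (-0.90, adjusted p = 0.0623).

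The third wild-type NAA library decided how many genes were called. Without it 7 genes were lower with NAA and 0 were higher, beside 22.8% of all genes called. LHCB1.4 had 505, 381 and 1346 RPKM with NAA and 1349.8, 1584 and 1345 RPKM with mock, and its log2 fold change was -1.70 ± 0.21 without the third NAA library (limma adjusted p = 0.000315) and -1.16 ± 0.37 with it (adjusted p = 0.0711). LHCB4.2 was -1.13 ± 0.14 without that library (adjusted p = 0.000315). For both genes the third library was the highest of the NAA group.

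The other 5 genes called without that library were LHCB2.3 (-0.89), LHCB1.3 (-0.83), PSAE2 (-0.62), PSBQ1 (-0.57) and LHCA4 (-0.53), and with it their values were -0.52, -0.63, -0.45, -0.49 and -0.37. LHCB1.3 had 8840.0, 7358 and 12114 RPKM with NAA and 14498, 14641 and 13764 RPKM with mock, all NAA libraries below all mock ones. PSAE2 had 449, 412 and 617 RPKM with NAA and 655, 714 and 624 RPKM with mock, and PSBQ1 had 377, 395 and 455 RPKM with NAA and 580.4, 559.7 and 575 RPKM with mock. In both, too, every NAA library was below every mock library. In the mock comparison of the fip37 LEC1:FIP37 label with wild type, PSAE2, PSBQ1 and LHCB1.4 were called lower (-0.81, -0.57 and -1.29). LHCB4.2, LHCB2.3, LHCB1.3 and LHCA4 were not called there, and their libraries overlapped between the genotypes. Both comparisons use the same wild-type mock libraries.

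**Figure D3:**
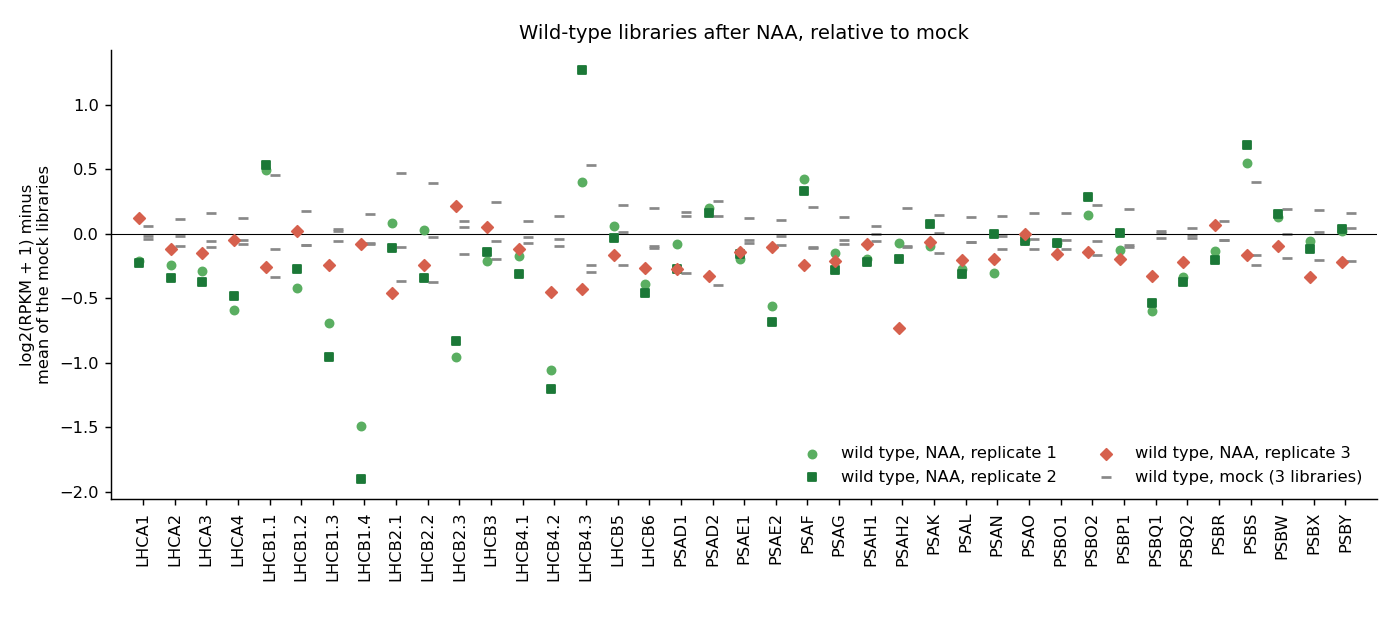
Log2(RPKM + 1) of each wild-type library minus the mean of the 3 wild-type mock libraries, for the 39 genes tested. Circles, squares and diamonds are the first, the second and the third NAA libraries, and grey dashes are the mock libraries. LHCB1.4, LHCB4.2, LHCB1.3 and LHCB2.3 are lowest in the first and second NAA libraries, and the third lies nearer to mock for them.

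Of the genes around the photosystems, most of those called in wild type fell with NAA. The counts stand beside 8.35% called over all genes tested, a share not split by direction here. The NAA libraries lay all below the mock ones for 21.6% of all genes and all above them for 9.64%. PORB, which reduces protochlorophyllide in the light, had 136, 111 and 185 RPKM with NAA and 355, 369 and 405 RPKM with mock (-1.41 ± 0.19, limma adjusted p = 0.00101), and 4 of 17 chlorophyll synthesis genes fell. The GATA factors GNC and CGA1, which promote chloroplast development, fell by 1.09 and 1.38, and HY5 fell by 0.75, so that 3 of 9 regulators fell. PETE1, a plastocyanin, and FD1 fell by 0.48 and 0.57, which made 2 of 13 electron transport genes, and CPSRP43, which carries antenna proteins to the thylakoid, fell by 0.64, the only one of 9 assembly genes called. ELIP1 and ELIP2, antenna relatives induced by strong light, rose by 1.09 and 1.89, the 2 of 9 such relatives called. Chlorophyll breakdown and clock genes had no call with all libraries. The clock genes PRR5 and PRR7 stood at 35.2, 39.9 and 13.1 RPKM and at 42.5, 51.1 and 20.4 RPKM with NAA. With mock they ran from 16.2 to 17.6 and from 23.6 to 29.8 RPKM. For both, the third NAA library lay below all mock libraries and the other NAA libraries above them. New calls in these lists without the third NAA library were not counted. Of 9 root markers tested 2 fell, and of 5 epidermis and vein markers 1 fell. Root markers summed to 295 to 357 RPKM with NAA and 473 to 552 RPKM with mock, mostly from PYK10. The part of these markers in the differences was not tested.

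In the libraries labelled fip37 LEC1:FIP37 no photosystem gene passed the threshold for NAA against mock. By limma 0 of 39 genes were called and 0 had an unadjusted p under 0.05, beside 0.437% of all genes called. The log2 fold changes ran from -0.37 for LHCB1.4 to 0.02 for PSBS, with a median of -0.13 beside -0.04 over all genes tested, and 37 of the 39 were below 0. That median was -0.21 and -0.20 without the second mock and the first NAA library, and -0.080 and -0.057 without the third mock and the third NAA library, and 0 under quantile normalization. Their SE was 0.11 to 0.37. LHCB4.2 had 838, 773 and 668 RPKM with NAA and 836, 739 and 898 RPKM with mock in these libraries, which overlapped (-0.12 ± 0.18).

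The test of the difference between the genotypes' NAA effects called 0 of 39 genes, with 1 at an unadjusted p under 0.05, beside 1.69% of all genes called. LHCB4.2 was 0.78 ± 0.26 in that test (fip37 LEC1:FIP37 minus wild type, limma adjusted p = 0.141) and LHCB1.4 was 0.79 ± 0.52 (adjusted p = 0.475). Without the third wild-type NAA library both were called, at 1.01 ± 0.19 and 1.32 ± 0.29 (adjusted p = 0.00788 and 0.0137), beside 12.3% of all genes called. The lower LHCB4.2 level with NAA in wild type is thus not shown to differ between the genotypes when all libraries are used.

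The m6A lists were of 2 kinds, and counts are not comparable between them. For wild type the authors called peaks with MACS in each of 4 immunoprecipitated libraries, and tmk4-1, 35S:FIP373A and 35S:FIP37 each had 1 list for the genotype, made on exons in steps of 50 nt by a caller not given in the sources used here. In tmk4-1 with NAA 13 of the 40 genes held a peak, which is 32.5%, beside 34.6% of all genes averaging 100 RPKM or more and 6.14% of those with at least 1 RPKM. In 35S:FIP373A 38 genes held a peak (95%, beside 72.8% and 11.6%), and in 35S:FIP37 37 genes did (92.5%, beside 71.1% and 12.9%). In wild type with NAA 5 genes held a peak in both lists (12.5%, beside 28.0% and 17.8%), and with mock 6 genes did (15%, beside 28.9% and 22.4%). Fold enrichments and scores given below are the authors' values for single peaks.

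**Figure D4:**
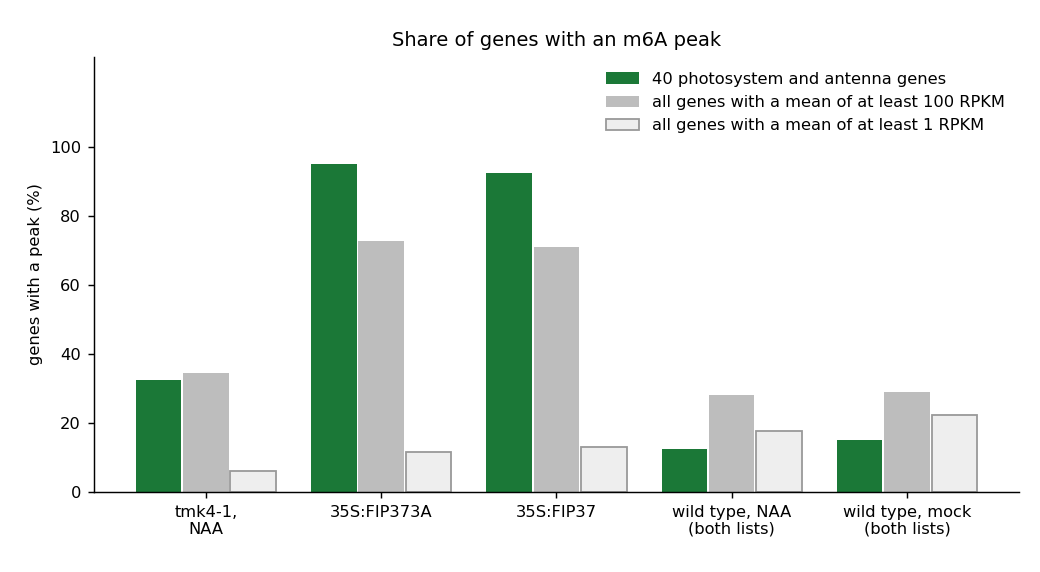
Share of genes with an m6A peak (percent) in each list, for the 40 photosystem and antenna genes (green), all genes averaging 100 RPKM or more (grey) and all with at least 1 RPKM (white). For wild type a gene counts when both lists hold a peak. The 40 genes stand at 95% and 92.5% in the lists of 35S:FIP373A and 35S:FIP37 and at 12.5% and 15% in wild type with NAA and mock.

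The genes with a peak in both wild-type NAA lists were LHCB4.1, PSAD2, PSAE2, PSAN and PSBS, and the same 5 with PSBP1 had one in both mock lists. Counted per list, 5 and 11 genes had a peak with NAA and 6 and 13 with mock, so the second replicate of each held more. LHCA2, LHCB6, PSAF and PSBO1 had a peak in the second list of each treatment, PSBP1 and PSBQ1 also in the second NAA list, and LHCA3, LHCA4 and LHCB1.3 in the second mock list. Of the 6 genes with repeated peaks with mock, PSAD2, PSAN and PSBP1 were higher, PSAE2 was lower, and LHCB4.1 and PSBS were not called in the mock comparison of RNA levels between the libraries labelled fip37 LEC1:FIP37 and wild type. The median fold enrichment of peaks on these genes ran from 1.31 to 1.51 over the 4 lists, beside 1.86 to 1.99 over all peaks. The median pileup at their summits was 169 to 202 tags, beside 101 to 105 over all peaks, and the highest pileup in any list was 256 to 296 tags. The authors kept 1 tag per position, which left 26.5% to 29.8% of the immunoprecipitated tags, and the part of that limit in the low fold enrichments at these abundant transcripts was not tested.

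PSBS had the strongest wild-type peak of these genes. Its peaks were listed at fold enrichments of 2.15 and 2.72 in the NAA lists and 2.16 and 2.39 in the mock lists, and the 4 summits lay within 5 nt of each other, from position 16873145 to 16873150 of chromosome 1 (TAIR10). It was the only one of the 40 genes with a -log10 q-value of at least 10 in both lists of a treatment, from 14.7 to 19.9 over the 4 lists. Next came LHCA2 at chr3:22746843-22747237 with a fold enrichment of 1.79 in the second NAA list and at chr3:22746839-22747246 with 1.69 in the second mock list. LHCB6 had a peak at chr1:5446549-5446779 with 1.65 in the second NAA list and at chr1:5446547-5446774 with 1.68 in the second mock list. PSAD2 had peaks in all 4 lists, between 1.3 and 1.62, with the strongest at chr1:753524-753783 in the second NAA list. LHCA4 had a single one, at chr3:17493376-17493576 with 1.60 in the second mock list. Between the wild-type lists that held them, the summits lay within 11 nt of each other for LHCA2 and LHCB6 and within 12 nt for PSAD2.

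In the 35S lines nearly every gene was listed with several peaks. On the 40 genes lay 102 of 4294 peaks in 35S:FIP373A and 95 of 4762 peaks in 35S:FIP37. LHCB4.3, the gene of lowest RPKM tested, was absent from both lists. PSAD1 was also absent in 35S:FIP373A, and PSAD2 and PSAH1 in 35S:FIP37, so each list lacked a peak on a different PSAD copy. The PSAD peaks listed were weak, with highest scores of 1.34 (PSAD2 in 35S:FIP373A) and 1.27 (PSAD1 in 35S:FIP37). The lowest such scores on these genes were 1.33 and 1.27 in those lists. LHCB1.5, listed at 0 RPKM in the RNA-seq table, held 6 peaks in 35S:FIP373A, 5 in 35S:FIP37 and 2 in tmk4-1, the most of the 40 genes in both 35S lists. Of the peaks on these genes, 88.2% in 35S:FIP373A and 95.8% in 35S:FIP37 overlapped a peak of the other list. An overlap was at least 50% of the shorter peak. The matching shares over all peaks of the lists were not counted.

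**Figure D5:**
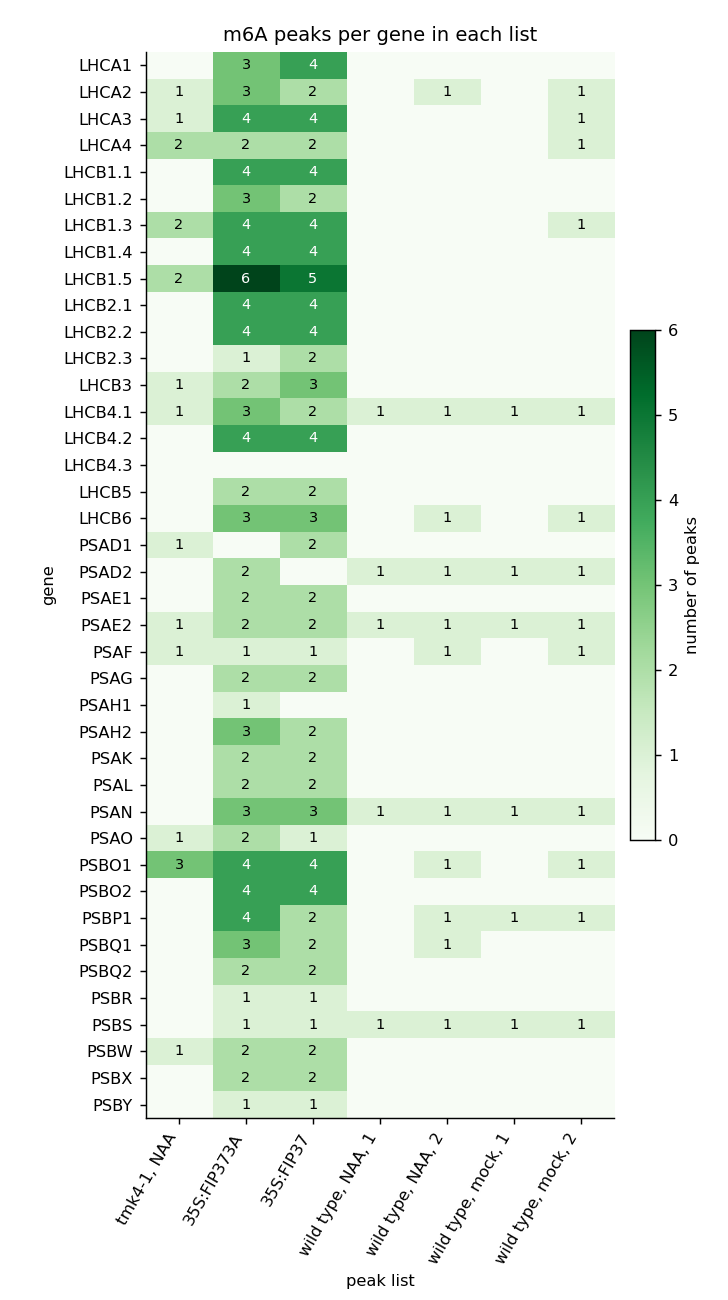
Number of m6A peaks on each of the 40 genes (rows) in each of the 7 lists (columns, from left to right tmk4-1 with NAA, 35S:FIP373A, 35S:FIP37, wild type with NAA and wild type with mock, 2 lists each). Empty cells are 0. The 35S columns are filled for all but LHCB4.3, PSAD1, PSAD2 and PSAH1, and LHCB4.1 and PSAE2 are filled in all 7 columns.

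The enrichment scores on these genes were also set side by side for the 35S lists, and 1 list a line gives no replicate check. For the 36 genes with a peak in both, the highest score in 35S:FIP373A over that in 35S:FIP37 had a median of 0.96, ran from 0.30 for LHCB2.1 to 1.29 for PSBW, and was above 1 for 12 genes. PSAK had the highest score in 35S:FIP373A, 6.16, beside 6.28 in 35S:FIP37, for a peak listed at chr1:10722233-10722828 in both. LHCB3 had 4.67 in 35S:FIP373A and 4.50 in 35S:FIP37, and PSBW had 3.70 and 2.87. LHCB2.1 had 2.62 in 35S:FIP373A and 8.74 in 35S:FIP37, the highest of that list on these genes. Its gene has similar copies, which makes the value of a single copy uncertain. Over all peaks on these genes the median score was 1.54 in 35S:FIP373A and 1.60 in 35S:FIP37, beside 2.37 and 2.38 over all peaks of the lists.

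By the order of the listed peaks of a gene, which gives no place within its transcript, the peak of highest score was the 5′-most for 16 genes and the 3′-most for 15 in 35S:FIP373A, with 1 inner peak and 6 genes with a single peak. In 35S:FIP37 it was the 5′-most for 19 genes and the 3′-most for 13, with 5 genes with a single peak. The place was the same in both lists for 27 of the 36 genes. PSAK, LHCB3, PSBW, PSBX, PSAL and LHCB1.4 had it as the 5′-most of their listed peaks in both lists, and LHCB4.1, LHCA2, LHCA3, LHCA4, LHCB4.2 and PSBO1 as the 3′-most in both.

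In tmk4-1 with NAA 18 of 1865 peaks lay on 13 of the 40 genes. They were LHCA2, LHCA3, LHCA4, LHCB1.3, LHCB1.5, LHCB3, LHCB4.1, PSAD1, PSAE2, PSAF, PSAO, PSBO1 and PSBW. LHCB3 had the highest score, 13.98, for a peak of 50 nt at chr5:22038415-22038464, followed by PSBW with 9.94 and PSBO1 with 7.31. LHCB3 and PSBW were thus high in all 3 lists of this kind. The LHCB3 peak of tmk4-1 lay inside the 35S peak at chr5:22038315-22038876. The median score of the peaks on these genes was 3.95, beside 3.50 over all peaks of the list. Across all 7 lists, LHCB4.1 and PSAE2 held a peak in each, 20 genes held peaks in 2 lists alone, PSAH1 in 1 and LHCB4.3 in 0.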

How the data were processed

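RNA-seq values were RPKM per gene as the authors deposited them, and the submitters' processing notes name the aligner STAR 2.5.3a and the build TAIR10. Columns named for a genotype alone were read as its mock libraries. RPKM values were taken as log2(RPKM + 1), the 18072 genes averaging 1 RPKM or more (of 34262) were kept, and limma 3.58.1 in R 4.3.3 (trend in the prior variance) was fitted to all 12 libraries in 4 groups, with Benjamini-Hochberg adjustment and a threshold of 0.05. The table holds no counts. Where the design text speaks of biological replicates it does so for wild type, so for the fip37 LEC1:FIP37 label p-values measure the spread between libraries, which may be technical.

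The wild-type lists were made with MACS 2.2.6 per the file headers, 1 list for each immunoprecipitated library, with pileup (signal scaled between immunoprecipitated and input tags), fold enrichment, and -log10 p-value and -log10 q-value per peak. They were called at a q-value of 0.05 with an extension of 200 nt and 1 tag per position, from 6420713 to 6714976 immunoprecipitated tags kept. The other 3 lists hold an enrichment score and a p-value or q-value per peak as the authors deposited them, and how their replicates were combined was not given in the sources used here. A wild-type peak belonged to a gene when its summit lay inside the gene's span in RefSeq's TAIR10.1 gene table. For the other 3 lists the midpoint of the peak was used. The gene table matched 32548 genes and all 40 members. That table names no strand, so antisense or overlapping genes cannot be told apart, and no sequence was used here.

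The 40 members and the other gene lists were chosen with earlier results of these data known. Values in every library were given for the 5 called members with the smallest adjusted p in each direction, the 3 members of highest and the 3 of lowest mean RPKM, and copies whose calls differed. From each other list at most 3 called genes with the smallest adjusted p were to be named, and positions were given for the 5 members of highest fold enrichment in wild type. Some further genes were named after their values were seen. The limma scripts were tested on simulated data. The alternatives were other pseudocounts, filters and scalings, a replicate block, fits on the groups compared alone, the omission of each library, stricter peak scores and, chosen after seeing the data, the omission of LHCB1 and LHCB2 copies and the authors' own gene assignment. Peaks were read with Python 3.11.15 and pandas 2.3.3, and figures were drawn with matplotlib 3.10.9.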

Additional observations from a re-analysis of the deposited data

Results flagged for a closer look

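Among the photosystem, antenna and companion genes, 3 companion genes had NAA effects that differed between the genotypes by the test of the difference itself (fip37 LEC1:FIP37 minus wild type, limma, adjusted over all 18072 genes). They were 3.37% of the 89 companion genes tested, beside 1.69% of all genes called. PORB, the light-dependent protochlorophyllide reductase, averaged 464 ± 51.7 RPKM with NAA and 501 ± 97.8 RPKM with mock in the libraries labelled fip37 LEC1:FIP37, against 144 ± 37.9 RPKM with NAA and 376 ± 26 RPKM with mock in wild type (SD, n = 3 each). Its difference was 1.31 ± 0.27 on the log2 scale (SE, limma adjusted p = 0.0336), and it missed the threshold without any 1 of 10 of the 12 libraries, the exceptions being the third of wild type with NAA and the third under the label with mock (1.14 to 1.4, adjusted p = 0.0513 to 0.113).

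CGA1, a GATA factor of chloroplast development, averaged 2.19 ± 0.354 RPKM with NAA and 3.07 ± 0.860 RPKM with mock under that label, against 2.02 ± 0.143 and 6.85 ± 0.272 RPKM in wild type. The difference was 1.04 ± 0.21 (limma adjusted p = 0.0354), lost without any 1 of 10 libraries, all but the third of wild type with NAA and the first under the label with mock (0.94 to 1.09, adjusted p = 0.0593 to 0.115). ELIP2, an antenna relative induced by strong light, averaged 6.36 ± 0.642 RPKM with NAA and 3.86 ± 0.518 RPKM with mock under that label, against 12 ± 3.0 and 2.5 ± 0.83 RPKM in wild type. The difference was -1.29 ± 0.27 (limma adjusted p = 0.0383), and it was lost without any 1 of 9 libraries, all but the first and the third of wild type with NAA and the first of wild type with mock (-1.38 to -1.15, adjusted p = 0.0536 to 0.117). With no filter on low values all 3 calls were lost, at limma adjusted p = 0.0603 for PORB, 0.0612 for CGA1 and 0.0692 for ELIP2. CGA1 and ELIP2 were also lost under median-ratio scaling (adjusted p = 0.0611 and 0.0672) and quantile normalization (adjusted p = 0.0731 and 0.0696), and ELIP2 with the replicate block (adjusted p = 0.05002).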

How the results depend on the processing

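Over the 48 calls of single photosystem and antenna genes, 25 held under all alternatives run, and of 912 values under alternatives 839 kept direction and side of the threshold, 72 missed the threshold and 1 turned sign. That one was PSBO1 with NAA under quantile normalization (-0.080, limma adjusted p = 0.684). Quantile normalization also moved the members' median for fip37 LEC1:FIP37 against wild type with mock to 0.22, against 0.42 in the fit reported, and that for NAA against mock under the label to 0, against -0.13. Leaving out 1 library gave 18 to 25 members called with NAA and 19 to 27 with mock. Among the companion genes 57 of 88 calls held under all alternatives run.

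The NAA calls in wild type changed with single libraries. The 1 member called became 3 with a filter at a mean of 5 RPKM and 0 with the libraries of the groups compared alone, and 0 to 7 when 1 library was left out. It was 0 without the first mock or the second NAA library of wild type, 7 without the third NAA library of wild type, and 2 without the first or the third NAA library labelled fip37 LEC1:FIP37. Over all genes the 1509 calls became 755 with the groups compared alone and 477 to 4119 with 1 library left out. For NAA under the label the 79 calls over all genes became 48 with the filter at 5 RPKM, 125 with quantile normalization and 31 to 201 with 1 library left out. For the difference between genotypes the 306 calls became 192 with no filter, 493 with quantile normalization and 68 to 2231 with 1 library left out, and the members called, 0 as reported, were 1 with quantile normalization and 0 to 2 with 1 library left out. The cause was not tested.

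Same-numbered libraries did not deviate together in every pair (correlations of deviations -0.10 to 0.40), so the numbers were not taken as pairs. With a replicate block the members called were 24 with NAA and 24 with mock between the genotypes, 1 for NAA in wild type, 0 under the label and 0 for the difference, and over all genes 7744, 6810, 1352, 64 and 264. PSBO1 with mock was then not called (limma adjusted p = 0.072), nor was the ELIP2 difference.

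For the peaks, the better-scored 50% of the tmk4-1 peaks fell on 7 of its 13 members. At a -log10 q-value of at least 10 the members with a peak in both wild-type lists numbered 1 with NAA and 1 with mock, and with either list alone 5 to 11 and 6 to 13. The authors' own gene assignment gave the same counts in the 3 lists that carry one, and both this check and the omission of the LHCB1 and LHCB2 copies were chosen after seeing the data. The RPKM table holds no counts, so no counting error can be given, and reads shared by similar copies limit single LHCB1 and LHCB2 values.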
